A study of Homo sapiens with 4 samples.

Results

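The transcription factor AP-1 is a set of paired proteins rather than a single molecule. Its subunits come from the Fos, Jun, ATF and Maf families, which share a basic region that grips DNA and a leucine zipper that joins the pair. Fos proteins need a partner, usually a Jun protein, and the pair binds the sequence TGACTCA, while pairs that hold an ATF protein prefer TGACGTCA. MAP kinases switch AP-1 on by raising the transcription of FOS and JUN and by phosphorylating their products, and in mesenchymal-like breast cancer cells AP-1 is best known through FOSL1 (Fra-1). Described here are 10 genes of this group, the Fos genes FOS, FOSB, FOSL1 and FOSL2, the Jun genes JUN, JUNB and JUND, and the partners ATF3, BATF and MAFF. They were found by gene symbol and had 15 of the 47323 probes on the array, which carry 31415 distinct gene symbols.

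The arrays, Illumina HumanHT-12 v4 bead arrays with 1 colour, measured total RNA of MDA-MB-231, an established human line of triple-negative breast cancer with a mesenchymal-like appearance. Cells of the control group (shCntrl, n = 2 arrays) carried a scrambled short hairpin RNA, and those of the other group (shT7#1, n = 2 arrays) carried 1 hairpin against TRPM7, a cation channel fused to a kinase. The title of the study asks about TRPM7, cell tension, SOX4 and the mesenchymal state. Whether the 2 arrays of a group hold RNA of separate cultures is not in the labels. The p-values therefore reflect array-to-array spread alone, possibly technical.

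Signals are given as log2 of the background-corrected and quantile-normalised intensity. A probe counts as above background on an array when its detection p, set against negative control beads, is below 0.05. Between 19492 and 20261 probes were above background on each array, and the lowest signal among them, the detection floor, lay between 4.92 and 4.98 log2 units. The TRPM7 probe stayed at background throughout, so the arrays hold no check of the knockdown, and SOX4 lay at 8.06 in shCntrl and 5.94 in shT7#1. Of 6 mesenchymal markers 4 (VIM, CD44, AXL and ZEB1) were above background on all 4 arrays, and FN1 and TWIST1 on 1 array each. Of 7 luminal or epithelial markers 4 (EPCAM, ERBB2, KRT18 and GATA3) were above background on all 4 arrays, and CDH1, ESR1 and PGR on 0. Of 6 leukocyte markers 4, PTPRC among them, were above background on 0 arrays, and CD14 was above background on all 4. Summed signals of 6 fibroblast markers lay between 913 and 999.6 units in shCntrl and between 760 and 840.4 in shT7#1, and the part of this difference in the results was not tested. Among them COL1A2 fell by 2.32 log2 units (limma adjusted p of 0.00262 over all passing probes), PDGFRB was above background on all 4 arrays, and DCN and PDGFRA on 0. A lower signal in a culture can mean fewer cells that express a gene or less RNA per cell, and these arrays cannot tell them apart.

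The windows of 250 bases before the listed transcription starts differ between these related genes in the motifs searched. They are RefSeq sequences on GRCh38.p14, chosen for the members whose signal passed the test together with JUN and JUND, and capitals mark the motifs found. FOS lies on chromosome 14 (chr14:75278578-75278827, plus strand) and has TATAAA, the TATA box, from base -33 to -28.
FOS: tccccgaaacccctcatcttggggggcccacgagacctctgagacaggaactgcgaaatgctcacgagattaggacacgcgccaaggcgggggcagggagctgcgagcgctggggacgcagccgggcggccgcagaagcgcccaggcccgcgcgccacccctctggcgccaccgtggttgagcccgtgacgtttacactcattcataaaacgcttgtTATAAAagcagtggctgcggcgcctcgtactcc
The BATF window lies on the same chromosome (chr14:75522219-75522468, plus strand) and held none of the motifs searched.
BATF: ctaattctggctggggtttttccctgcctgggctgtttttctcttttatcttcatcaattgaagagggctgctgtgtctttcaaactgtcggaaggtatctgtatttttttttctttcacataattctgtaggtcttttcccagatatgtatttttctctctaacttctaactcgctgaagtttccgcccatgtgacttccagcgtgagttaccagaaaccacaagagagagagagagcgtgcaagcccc
ATF3 has 2 listed starts, of which the first is shown (chr1:212565157-212565406, plus strand). TGACATCA, a variant of the ATF site, lies from base -123 to -116.
ATF3: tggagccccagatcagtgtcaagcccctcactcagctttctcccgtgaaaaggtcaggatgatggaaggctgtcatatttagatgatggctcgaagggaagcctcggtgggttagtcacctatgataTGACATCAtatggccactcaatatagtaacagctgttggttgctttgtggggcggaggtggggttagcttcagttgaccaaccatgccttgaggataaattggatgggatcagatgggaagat
MAFF also has 2 listed starts. The first (chr22:38201744-38201993, plus strand) has TGACGTCA from base -54 to -47, and the second (chr22:38202770-38203019, plus strand) has a match to the NF-kB consensus from base -102 to -93.
MAFF first start: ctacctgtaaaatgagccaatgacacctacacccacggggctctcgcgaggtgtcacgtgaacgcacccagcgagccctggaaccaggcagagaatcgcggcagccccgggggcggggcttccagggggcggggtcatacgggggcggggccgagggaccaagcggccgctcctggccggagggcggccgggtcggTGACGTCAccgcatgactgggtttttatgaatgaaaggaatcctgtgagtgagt
MAFF second start: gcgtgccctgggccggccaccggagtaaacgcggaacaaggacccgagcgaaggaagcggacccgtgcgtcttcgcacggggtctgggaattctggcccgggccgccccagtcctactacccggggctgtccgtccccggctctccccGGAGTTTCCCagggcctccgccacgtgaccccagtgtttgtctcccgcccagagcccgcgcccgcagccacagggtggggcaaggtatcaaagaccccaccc
On the minus strand, JUN (chr1:58784048-58784297) has TGACATCA from base -67 to -60, and JUND (chr19:18281623-18281872) has TGACGTCA from base -200 to -193.
JUN: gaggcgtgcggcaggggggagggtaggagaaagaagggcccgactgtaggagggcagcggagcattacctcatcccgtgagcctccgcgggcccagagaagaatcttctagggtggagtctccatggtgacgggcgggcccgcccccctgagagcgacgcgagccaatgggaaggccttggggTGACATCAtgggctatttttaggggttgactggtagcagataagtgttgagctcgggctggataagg
JUND: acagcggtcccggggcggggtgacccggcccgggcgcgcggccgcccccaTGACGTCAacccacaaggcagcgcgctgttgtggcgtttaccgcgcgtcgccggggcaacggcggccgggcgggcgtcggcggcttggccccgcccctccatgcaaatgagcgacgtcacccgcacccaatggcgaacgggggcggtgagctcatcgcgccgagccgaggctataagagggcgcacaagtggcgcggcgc

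Promoter entries existed for 9 of the 10 members, with 11 windows in all. Both strands were searched for TGACTCA, TGACGTCA, TGACATCA, the serum response element, the NF-kB consensus and TATAAA. The classic AP-1 site TGACTCA was in 0 of the 11 windows and in 4.2% of all 35116 promoter windows. TGACGTCA was in 2 of the 11 and in 1.65% of all windows, and TGACATCA, added to the search after the windows were read, in 2 of the 11 and in 2.37%. The serum response element, in 1 fixed spelling, was in 0 member windows and in 0.0313% of all. Bases upstream of the windows and other spellings were not searched, so this count cannot tell whether FOS or another member has such an element. A match to the NF-kB consensus was in 1 member window, against 9.96% of all, and TATAAA was in 4, against 10.7%. It began at base -33 in FOS, -30 in FOSB and -31 in JUNB, but at -230 before the second ATF3 start, far from that position. A match is a run of letters and not a measured binding site. FOS and BATF lie on the same chromosome, with 240238 bases between them, and JDP2, which encodes another AP-1 partner, lies in that interval.

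ATF3, BATF and MAFF rose in shT7#1, FOS fell, and JUND missed the threshold narrowly. Of the 10 members, 9 had a probe above background on at least 2 arrays and were tested with limma, which adjusted p-values over 14731 genes. By an adjusted p below 0.05, 3 were higher and 1 was lower, or 44.4% of the tested members, where 6.48% of all tested genes were called. Over all genes 2.93% were called higher and 3.55% lower. FOS passed the filter on dim probes through shCntrl alone, and BATF met it through shT7#1, in each case the group with the higher signal. The genes were also picked with these results known, so the count is a description. The median change of the 9 tested members was -0.02 log2 units, against -0.000285 over all genes. Signals of the groups did not overlap for 7 of the 9, as for 55.7% of all genes tested. With any 1 of the 4 arrays left out, whichever it was, 0 members were called, while over the whole array 38 to 53 genes were called lower and 69 to 86 higher.

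**Figure D1:**
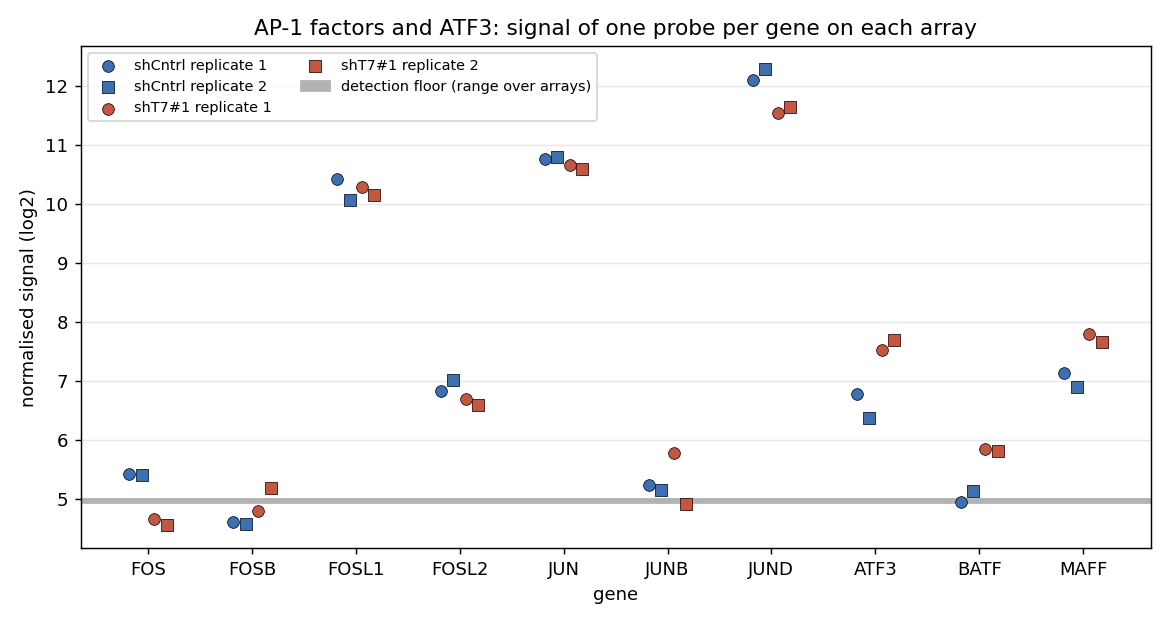
Normalised log2 signal of 1 probe per gene (vertical axis) for the 10 genes (horizontal axis), with 1 point per array, blue for shCntrl and red for shT7#1, and a grey band for the detection floor. ATF3, BATF, MAFF and FOSB have both red points above both blue ones, and FOS, JUND, FOSL2 and JUN the reverse. The 2 red points of JUNB lie on either side of the blue ones.

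FOS, the prototype immediate early gene, whose transcript appears within minutes of a growth signal and decays fast, was near background. Its single probe read 5.41 and 5.41 on the shCntrl arrays and 4.66 and 4.54 on the shT7#1 arrays. In shCntrl both arrays were above background, with detection p-values of 0.0039 and 0.00779, and neither shT7#1 array was, with 0.187 and 0.349. The difference is therefore a bound, and FOS was at least 1.36-fold lower in shT7#1. The fit, which uses the shT7#1 signals below the floor, gave -0.81 ± 0.12 log2 units (SE) at a limma adjusted p of 0.0215. Since the probe passed the filter through shCntrl alone, the group in which it was high, this p-value lends no separate support. The fitted value shrank to -0.26 without background correction, where the adjusted p was 0.0527. FOS stands at 0.28-fold in the authors' deposited table.

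FOSB, an immediate early gene close to FOS in sequence, was above background on 1 of the 4 arrays and was not tested. Its probe read 4.59 and 4.56 in shCntrl and 4.79 and 5.18 in shT7#1, and the last of these was the array above background. Without a filter on dim probes the fit gave 0.41 ± 0.15 log2 units (SE; limma adjusted p of 0.287). FOSB is listed at 2.05-fold in the authors' deposited table.

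FOSL1, which encodes Fra-1, was above background on all 4 arrays and its groups overlapped. Signals of 10.42 and 10.07 in shCntrl stood against 10.30 and 10.15 in shT7#1. Its log2 change was -0.02, with a 95% interval from -0.42 to 0.37 and a limma adjusted p of 0.950. The sign of the FOSL1 value turned when an array was left out, at 0.15 without shCntrl replicate 1 and 0.05 without shT7#1 replicate 2.

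FOSL2 encodes Fra-2, the other Fos protein that lacks the activation domain of FOS. Its signals were 6.83 and 7.01 in shCntrl and 6.69 and 6.58 in shT7#1, so both shT7#1 arrays were below both shCntrl arrays. The log2 change of -0.28 (95% interval -0.60 to 0.04) did not pass, with a limma adjusted p of 0.238.

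JUND, a Jun protein that is made in resting cells and can restrain growth, read 12.10 and 12.29 in shCntrl and 11.55 and 11.65 in shT7#1. All 4 arrays were above background and the groups did not overlap. Its change of -0.60 ± 0.13 log2 units (SE), with a 95% interval from -0.92 to -0.28, just missed the threshold at a limma adjusted p of 0.0564. It passed in 5 of 16 other settings, for example at 0.0296 when only probes above background on all 4 arrays were tested. JUND is at 0.66-fold in the authors' deposited table.

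JUN is a main partner of the Fos proteins. Its probe read 10.77 and 10.79 in shCntrl, against 10.66 and 10.60 in shT7#1. Both shT7#1 arrays were lower, by little. Its log2 change was -0.15 (95% interval -0.43 to 0.13), with a limma adjusted p of 0.451.

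JUNB, which often opposes JUN on shared targets, was near background. Its probe read 5.24 and 5.14 in shCntrl and 5.77 and 4.91 in shT7#1, where the second array was not above background. The shT7#1 arrays thus disagreed, with 1 above and 1 below both controls, and the log2 change of 0.15 (95% interval -0.55 to 0.85) had a limma adjusted p of 0.786. Without shT7#1 replicate 1 the JUNB value was -0.28, and without shT7#1 replicate 2 it was 0.59.

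ATF3 is a stress-induced factor that represses many promoters as a pair with itself. At its 1 detected probe, ILMN_2374865, it read 6.78 and 6.37 in shCntrl and 7.52 and 7.70 in shT7#1. All 4 arrays were above background and the groups did not overlap. ATF3 rose 2.04-fold, or by 1.03 ± 0.17 log2 units (SE), at a limma adjusted p of 0.0318, and 2.09% of all tested genes had a larger change in size. The adjusted p lay between 0.0623 and 0.132 with 1 array left out, and the change was 0.60 without background correction. The other 2 ATF3 probes were not above background on any array, with log2 signals between 4.33 and 4.50. The authors' processed values, 1 per gene symbol, put ATF3 between 1.67 and 2.23 log2 units on the 4 arrays, and on them its change was 0.33 with a limma adjusted p of 0.327. Those values all lie below 2.5, the level that the authors' deposited fold table treats as background per its header, and no fold of the authors is given for ATF3 here.

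BATF, best known in lymphocytes, is a short factor with a zipper but no activation domain that pairs with Jun proteins. Its signals were 4.95 and 5.13 in shCntrl and 5.85 and 5.81 in shT7#1. Above background were 1 shCntrl array and both shT7#1 arrays, and the groups did not overlap. BATF rose by a fitted 0.79 ± 0.12 log2 units (SE), with a limma adjusted p of 0.0265, but its size is uncertain since 1 control array was at the floor. The probe met the filter through shT7#1, the group in which it was high, so this p-value lends no separate support. Without background correction the change was 0.25, with an adjusted p of 0.0595, and on the authors' processed values it was 1.47, with an adjusted p of 0.0588.

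MAFF encodes a small Maf protein, which has no activation domain and pairs with itself or with cap'n'collar factors such as NRF2. Its 4 probes are given in turn. The brightest, ILMN_1680139, read 7.14 and 6.89 in shCntrl and 7.79 and 7.66 in shT7#1. It stood for the gene in the main comparison and rose by 0.71 ± 0.14 log2 units (SE), or 1.64-fold, with a limma adjusted p of 0.0449. ILMN_2322375 read 6.82 and 6.80 in shCntrl and 7.04 and 7.71 in shT7#1, which is a change of 0.56 log2 units that did not pass over all probes, with a limma adjusted p of 0.206.

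Another MAFF probe, ILMN_1700413, was above background on both shT7#1 arrays and on neither shCntrl array. It read 4.53 and 4.51 in shCntrl and 6.28 and 6.91 in shT7#1, so that MAFF at this probe was at least 3.14-fold higher, with a limma adjusted p of 0.0107 over all passing probes. This probe passed the filter through shT7#1 alone, the group in which it was high, so it had to differ and lends no support to the brightest probe. Over those probes, each tested on its own, 5.4% were called. The fourth probe, ILMN_2241168, was not above background on any array. No source used here tells which transcripts each probe detects. Without background correction the brightest probe changed by 0.45 log2 units. The call at the brightest probe was lost with median scaling (adjusted p of 0.0529), without a filter on dim probes (0.0649), and with every probe tested (0.0503). On the authors' processed values, with 1 value per symbol, MAFF was not called either (0.0578). The change there was not smaller, since MAFF stands at 2.17-fold in the authors' deposited table, against 1.64-fold at the brightest probe.

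**Figure D2:**
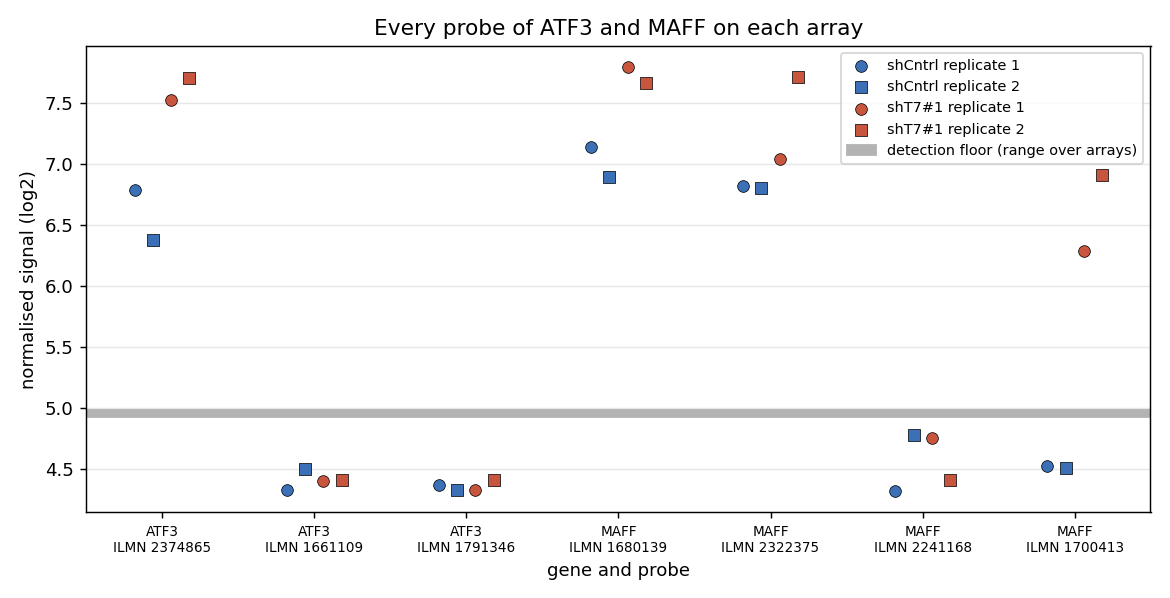
Normalised log2 signal (vertical axis) of the 3 ATF3 probes and 4 MAFF probes (horizontal axis) on each array, with shCntrl in blue, shT7#1 in red and the detection floor as a grey band. In the MAFF probe on the far right both red points stand at 6.28 and 6.91 and both blue ones lie below the floor, while 2 ATF3 probes and 1 MAFF probe lie below it on all arrays.

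**Figure D3:**
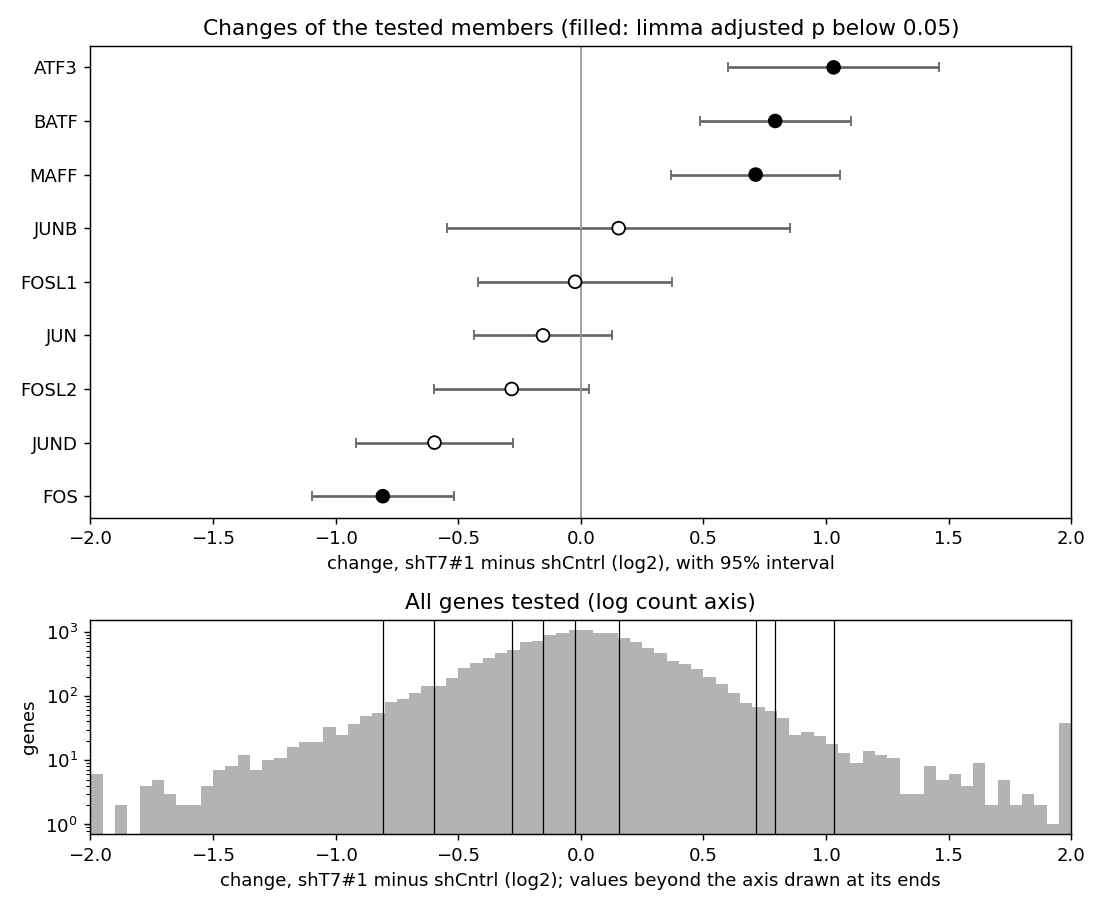
Upper panel, log2 change of shT7#1 against shCntrl with its 95% interval for the 9 tested members, filled where the limma adjusted p was below 0.05. Lower panel, the number of genes (log axis) at each change over all 14731 tested genes, with a black line at each member; the fitted value of FOS, -0.81, rests on shT7#1 signals at background, and genes beyond the axis are drawn at its ends.

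By the distance between log2 values on the 4 arrays, each taken relative to the mean of the gene's shCntrl arrays, the genes nearest to ATF3 were CPEB3 and STAT5A, at 0.0880 and 0.0947 log2 units. Nearest to BATF were CASP4 and CHST4, nearest to MAFF were TRAF4 and CCHCR1, and nearest to FOS were TMEM140 and ADAT3, at distances between 0.0197 and 0.0595. With 4 arrays in 2 groups such likeness mostly restates a similar change between groups.

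Other genes of the same protein class moved singly. Of 27 tested relatives and bZIP partners, 2 rose, 2 fell and 23 were not called, with a median of 0.02 log2 units. That is 14.8% called, against 6.48% of all genes. NFE2L3, a cap'n'collar factor that pairs with small Maf proteins, rose by 0.74 ± 0.15 log2 units (SE), with a limma adjusted p of 0.0454. BATF3, a relative of BATF known from dendritic cells, rose by 0.69 ± 0.12. CREB3L2, a factor anchored in the endoplasmic reticulum membrane, changed by -1.30 ± 0.11, with a limma adjusted p of 0.00559. TEF, a factor of circadian output, changed by -0.61 ± 0.12 and passed narrowly, with a limma adjusted p of 0.0493. Over 16 other settings the TEF change lay between -1.06 and -0.20, and it passed in 4 of them. JDP2, between FOS and BATF on the chromosome, was not called, at 0.08 log2 units with a 95% interval from -0.22 to 0.39.

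Upstream of AP-1, most MAP kinase genes were not called. Of 47 tested kinases and regulators, 4 rose, 43 were not called and 0 fell in the limma fit, or 8.51% called against 6.48% of all genes, a share near the background, with 8 at an unadjusted p under 0.05 and a median of 0.11 log2 units. With 1.14 log2 units MAP3K8, a kinase that links NF-kB signalling to ERK, had the largest rise, though of its shCntrl arrays just 1 was above background, which leaves the size uncertain. MAP3K8 met the filter through shT7#1, the group in which it was high, so its call lends no separate support. MAP2K3, which activates p38, rose by 0.84 ± 0.14 (SE), and its other 3 probes, with fitted differences of 0.58 to 0.85, did not pass, with limma adjusted p-values from 0.0550 to 0.0712. The smallest difference, 0.58, came from a probe above background on 0 shCntrl arrays. ELK4, a partner of SRF at serum response elements, rose by 0.85 ± 0.12 at its brightest probe, while the others, at 0.45 and 0.06, did not pass. FBXW7, a ubiquitin ligase subunit that marks JUN for destruction, rose by 0.79 ± 0.14, while its second probe, at 0.16, did not pass.

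Several genes known as AP-1 targets in other cells rose, led by cytokine genes. Of 35 tested, 10 rose, 2 fell and 23 were not called, with a median of 0.11 log2 units. That is 34.3% called, against 6.48% of all genes. This and the other lists were chosen with earlier results of these data known, so the shares are descriptions. The neutrophil chemokine CXCL8 rose by 4.66 ± 0.11 log2 units (SE), CSF2, which encodes GM-CSF, by 3.77 ± 0.13, and IL6 by 3.19 ± 0.12. All 3 promoters are also textbook targets of NF-kB. NQO1, a quinone reductase better known as a target of NRF2, changed by -1.43 ± 0.12, and the calcium-binding protein gene S100A2 by -1.34 ± 0.16. These 5 genes had limma adjusted p-values from 0.000243 to 0.0137 at their brightest probes. A second NQO1 probe, at -1.44 and above background on 1 shT7#1 array, did not pass over all probes (limma adjusted p of 0.0574). A second CXCL8 probe, at 4.56, did (0.000423). MMP9 and IL1B, also counted as rising, were above background on 0 shCntrl arrays and on both shT7#1 arrays. They passed the filter through shT7#1 alone, the group in which they were high, so their calls lend no support.

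Of 36 other immediate early genes tested, 9 rose, 2 fell and 25 were not called, with a median of 0.05 log2 units. That is 30.6% called, against 6.48% of all genes. TNFAIP3 and NFKBIA, inhibitors of NF-kB, rose by 2.45 ± 0.15 and 1.14 ± 0.11 log2 units (SE). NFKBIZ, an atypical NF-kB inhibitor protein, rose by 1.38 ± 0.11 and the kinase gene PLK2 by 1.25 ± 0.13. ID1, which blocks basic helix-loop-helix factors, changed by -1.12 ± 0.12, and PHLDA1 by -0.56 ± 0.11, with -0.74 at its second probe. Among 31 tested genes of the ATF4 and ATF3 stress response, 1 rose, 1 fell and 29 were not called, or 6.45% against 6.48% of all genes, with a median of 0.06. PPP1R15A (GADD34), a phosphatase subunit that restores translation after stress, rose by 0.96 ± 0.12, and DDIT4, an inhibitor of mTORC1, changed by -1.02 ± 0.11. With 1 array left out, 6 to 8 target genes, 1 to 3 immediate early genes, 0 or 1 relatives, 0 or 1 kinase genes and 0 stress genes were called.

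**Figure D4:**
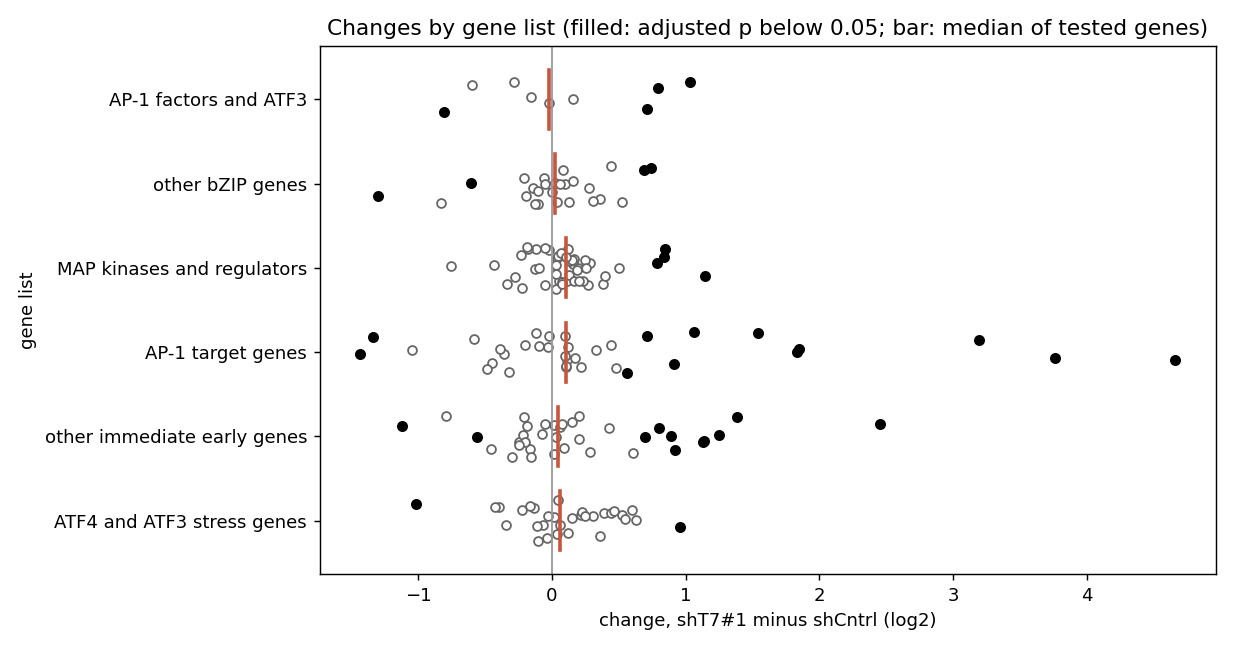
Log2 change of shT7#1 against shCntrl (horizontal axis) of each tested gene in 6 gene lists (vertical axis), filled where the limma adjusted p was below 0.05, with a red bar at each list's median. All 6 medians lie between -0.02 and 0.11, and the called AP-1 targets reach 4.66.

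**Figure D5:**
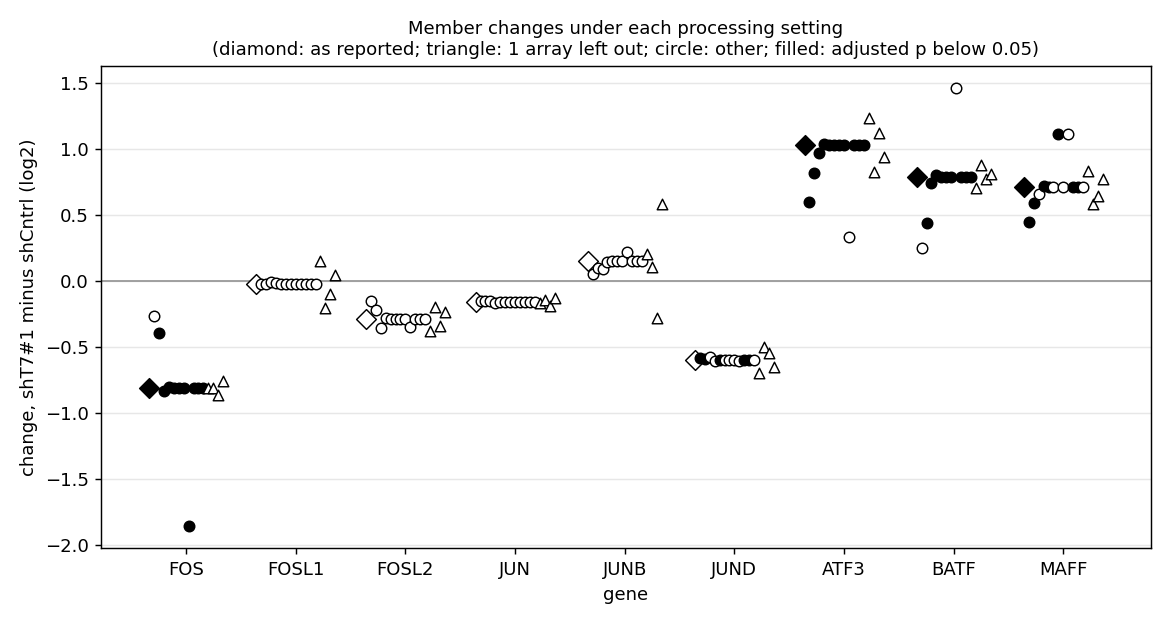
Log2 change of each tested member (vertical axis) under each processing setting, with a diamond for the value as reported, triangles for 1 array left out and circles for other settings, filled where the adjusted p was below 0.05. ATF3, BATF and MAFF lie above 0 and FOS, JUN, JUND and FOSL2 below it in every setting that gave a value, while FOSL1 and JUNB lie on both sides. The groups of the genes that kept to 1 side did not overlap, so their triangles could not cross 0.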

How the data were processed

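Starting values were the deposited linear signal intensity of every probe with its deposited detection p-value; the submitters' processing notes name GenomeStudio 2011.1. The authors' log2 values (1 per symbol; rule for joining probes not stated) and their table of group means and fold ratio were made with RMA in ArrayStar, per the file headers. Column medians of the authors' log2 values were 3.02 to 3.03. The authors' 2 shCntrl columns ran in the opposite order to the scanner columns: over 8604 genes with 1 probe, the difference between replicates 1 and 2 correlated at -0.954 for shCntrl and 0.959 for shT7#1. Replicate numbers here are those of the scanner table. Both belong to 1 group, so comparisons of group means do not change, while fits with the replicate number as a block do.

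Intensities were corrected with limma 3.58.1 in R 4.3.3 by normexp from the detection p-values (offset of 16), quantile-normalised and put on a log2 scale. Probes above background (detection p below 0.05) on at least 2 arrays were kept, 20366 in all and 19326 with a symbol, and the brightest stood for a gene. Symbols were updated through RefSeq (GRCh38.p14), used for names, order and promoter sequences. lmFit and eBayes compared shT7#1 with shCntrl, two-sided, with Benjamini-Hochberg adjustment over 14731 genes and 2 residual plus 3.65 prior degrees of freedom. Values ± SE come from this fit. The script was tested on simulated data. Under "at least N-fold", the brighter mean was divided by the detection floor or, where higher, the signal of the dim probe itself.

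Named by rule are all members and up to 4 called genes per direction of each of 5 further lists (206 genes). So are the 2 genes nearest to each called member, and TRPM7 and SOX4. MMP9 and IL1B are named only for their detection. Of the genes this rule names, 1 is not reported here. Members and lists were chosen with earlier results of these data known. No slide or scan is recorded in these files, and having only 4 arrays limits the precision. Alternatives changed the background correction, offset, normalisation, dim-probe filter, probe choice, variance prior, replicate block, input values and arrays.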

Additional observations from a re-analysis of the deposited data

How the results depend on the processing

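Under 16 other settings, of which 1 (the exchanged block) was chosen after seeing the data, the directions of FOS, FOSL2, JUN, JUND, ATF3, BATF and MAFF held wherever a value existed. The groups of these genes did not overlap, so leaving 1 array out could not turn them. Settings that changed just the dim-probe filter, variance prior or replicate block kept the same fitted change. Their direction could turn only with the background correction, offset, normalisation, probe choice or input values. With 1 array left out, FOSL1 ranged from -0.20 to 0.15, turning to 0.15 without shCntrl replicate 1 and 0.05 without shT7#1 replicate 2, and JUNB from -0.28 (without shT7#1 replicate 1) to 0.59. Counts below are calls by limma. The authors' processed values gave 0 higher members, 111 higher and 97 lower genes over the array, and 1, 0, 0, 2 and 5 called genes among relatives, stress genes, kinases, immediate early genes and targets. With 1 array left out, 0 members were called in either direction, against 69 to 86 higher and 38 to 53 lower genes; the called relatives numbered 0 to 1, stress genes 0 to 0, kinases 0 to 1, immediate early genes 1 to 3 and targets 6 to 8. The arm with 1 array is then assumed to vary like the other. Without background correction 1162 genes were higher and 1263 lower, with 10 stress genes, 7 kinases and 21 targets. An offset of 50 gave 965 higher and 1086 lower genes, 2 lower members, 7 stress genes and 7 kinases. Detection on all 4 arrays gave 694 higher and 817 lower genes and 4 stress genes, and left FOS, BATF and JUNB untested. A variance trend with a robust prior gave 1179 higher and 1303 lower genes, 2 lower members, 7 relatives, 11 stress genes, 7 kinases and 21 targets. Called relatives numbered 2 with median scaling, 1 without a dim-probe filter and 2 with every probe tested, and called kinases 2 with the mean of passing probes. The causes were not tested.

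Same-numbered arrays are not tied by the labels, and their deviations from the group means correlated at 0.125, which with 2 pairs does not establish a pairing. With the replicate number as a block, 553 genes were higher and 667 lower, and 2 members were lower, JUND joining FOS at an adjusted p of 0.0457. With the shCntrl numbers exchanged, as in the authors' table, 360 genes were higher and 420 lower, 2 relatives were called and MAFF was not (0.0577). For the 31 other genes that the naming rule chose, 0 of their values turned direction. All but SOX4 were picked for a call or for likeness to a called member, so this count is no sign of stability. Signals near the detection floor limit FOS, FOSB, JUNB and BATF most.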
